A study of Mus musculus with 96 samples.

Results

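The major urinary protein (Mup) gene cluster of mouse chromosome 4 and the unique sequence on either side of it were examined by PE-4Cseq. This assay ligates crosslinked DNA and counts, by read pairs, how often a chosen HindIII fragment, called the viewpoint, was joined to each fragment elsewhere on its chromosome. The stretch was taken as all HindIII fragments whose end lies from chr4:58000001-63000000 of the mm9 build. It holds 1476 of the 48320 fragments of chromosome 4. The cluster was set from the start of the first to the end of the last annotated Mup gene, chr4:59969676-61811897, a length of 1.84 Mb with 505 fragments. The left flank holds 612 fragments and the right flank 359. The cells were mouse embryonic fibroblasts (MEFs) at passage 4, from embryos dissected 13.5 days after the plug. The methods describe crosses with C57BL/6J of chimeric 129S5SvEvBrd mice that carry a deleted and a duplicated copy (Df/Dp). In lines E71 and E98 the 129S5 copy of chromosome 4 carries an engineered deletion in band 4E2, and that copy is called Df. The C57Bl6 copy in these same cells is intact and is called +DBl6. Lines E117 and E118 are undeleted controls, with a 129S5 copy, +129, and a C57Bl6 copy, +Bl6. The paper names F1 crosses for them without giving their 129S5 parent. All 4 lines are thus hybrids of both strains and differ in whether the 129S5 copy is deleted, and possibly in the cross they came from. Each line was amplified at each of 12 viewpoints, placed from 147.9 to 155.5 Mb, and the authors split the reads by strain into 1 set per copy. Each set is called a library here, so that 96 libraries form 48 groups of 2 lines. The libraries of both copies of a line at a viewpoint thus come from the same amplification. All viewpoints are far from the Mup cluster on the same chromosome, and viewpoints 3 to 10 lie inside the deletion.

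Mup genes encode small secreted lipocalins, made mainly in the liver, that carry pheromones into mouse urine. Their genes arose by repeated duplication in tandem, and the central members of the array are close to identical in sequence, while those at its edges differ more. In a capture assay a read is placed by the short sequence next to the restriction site, so that a duplicated stretch offers many sites whose reads have several equally good places in the genome.

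That property can be read from the sequences. A tag is used here for the 30 bases that begin with the HindIII site, shown in capitals, and run away from it on 1 side. Each site has 2 tags. All were read from the NCBIM37 (mm9) reference and compared with all 1684130 tags of the 842075 HindIII sites of the genome. The 3 tags of the stretch with most exact copies show sites whose reads fit many places. All were first met in the left flank and have 13, 12 and 12 copies inside the cluster.
tag with 11400 copies, chr4:58041757-58041786, minus strand: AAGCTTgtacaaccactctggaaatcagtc
tag with 10758 copies, chr4:58026705-58026734, minus strand: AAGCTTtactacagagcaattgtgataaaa
tag with 8870 copies, chr4:58026729-58026758, plus strand: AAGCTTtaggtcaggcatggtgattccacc

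The next 2 tags have all their exact copies inside the cluster and are among those with most copies of that kind. They were chosen after the copy numbers were seen and show the spacing of the array. Neighbouring copies lay a median of 83.8 and 80 kb apart.
tag with 15 copies, chr4:60053042-60053071, minus strand: AAGCTTagttttgctctgtctcctacagcc
tag with 14 copies, chr4:60085549-60085578, plus strand: AAGCTTgtggacacatacaagccacttata

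The last set holds the tags of the 3 cluster sites captured in most libraries and, for contrast, 1 tag of the most captured flank site. All but the tag marked with 1902 copies have a single exact copy in the genome.
cluster site 61512789, chr4:61512760-61512789, minus strand: AAGCTTgatatcacacacacgtaaatatgc
cluster site 61512789, chr4:61512784-61512813, plus strand: AAGCTTaagagttctttgccagaatctgtc
cluster site 61322081, chr4:61322052-61322081, minus strand: AAGCTTaaacctaaatctaactctaacccc
cluster site 61322081, chr4:61322076-61322105, plus strand: AAGCTTagggttagtgttagaagattttgt
cluster site 61582632, plus strand, 1902 copies, chr4:61582627-61582656: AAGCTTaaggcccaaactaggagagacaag
cluster site 61582632, minus strand, chr4:61582603-61582632: AAGCTTacagaccaaccagagaagcaaact
flank site, chr4:62186487-62186516, minus strand: AAGCTTtggccccgcccacctcttatagag

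Of the 96 libraries, 78 were used, with 64058 to 3969613 reads on chromosome 4 (median 962004). The others were the 16 Df libraries of viewpoints 3 to 10, whose chromosome lacks the viewpoint, and 2 control libraries of viewpoint 10 with 444 and 1255 reads. In 6 pairs of libraries of the same chromosome and viewpoint, from different lines, the log reads at shared distant sites correlated at 0.94 to 0.97, so that they cannot count as separate samples. Each such pair was summed, which left 72 libraries. A site with at least 1 read in a library is called captured in it, and captures are counted over sites and these 72 libraries. The stretch took 172649 of 95191679 reads, 0.181% of the chromosome. A used library captured a median of 74 of the 1476 sites (range 2 to 168) and a median of 3 of the 505 cluster sites (range 0 to 13). In 10 of the 78 libraries no cluster site was captured, and a count of 0 of 505 sites allows a share of up to 0.594%. These limits cover counting error only, since PCR reads without molecular identifiers are not independent molecules.

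Captured sites nearly disappeared inside the cluster. The authors had kept only reads with a unique match, so reads that fit several places equally well were dropped before counting. In the left flank 544 of 612 sites (88.9%) and in the right flank 311 of 359 (86.6%) were captured in at least 1 used library, against 97 of 505 cluster sites (19.2%). The other 408 cluster sites (80.8%) had no read in any of the 96 libraries, against 68 (11.1%) and 48 (13.4%) in the flanks. Captures per site were 4.73 in the left flank, 0.533 in the cluster and 6.07 in the right flank. Of the 285 captures of cluster sites in the 78 libraries, 44.9% rested on 1 read, against 26.6% and 24.9% of the captures in the left and right flank. The assembly itself has gaps in the cluster, and 150000 of its bases are unknown.

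**Figure D1:**
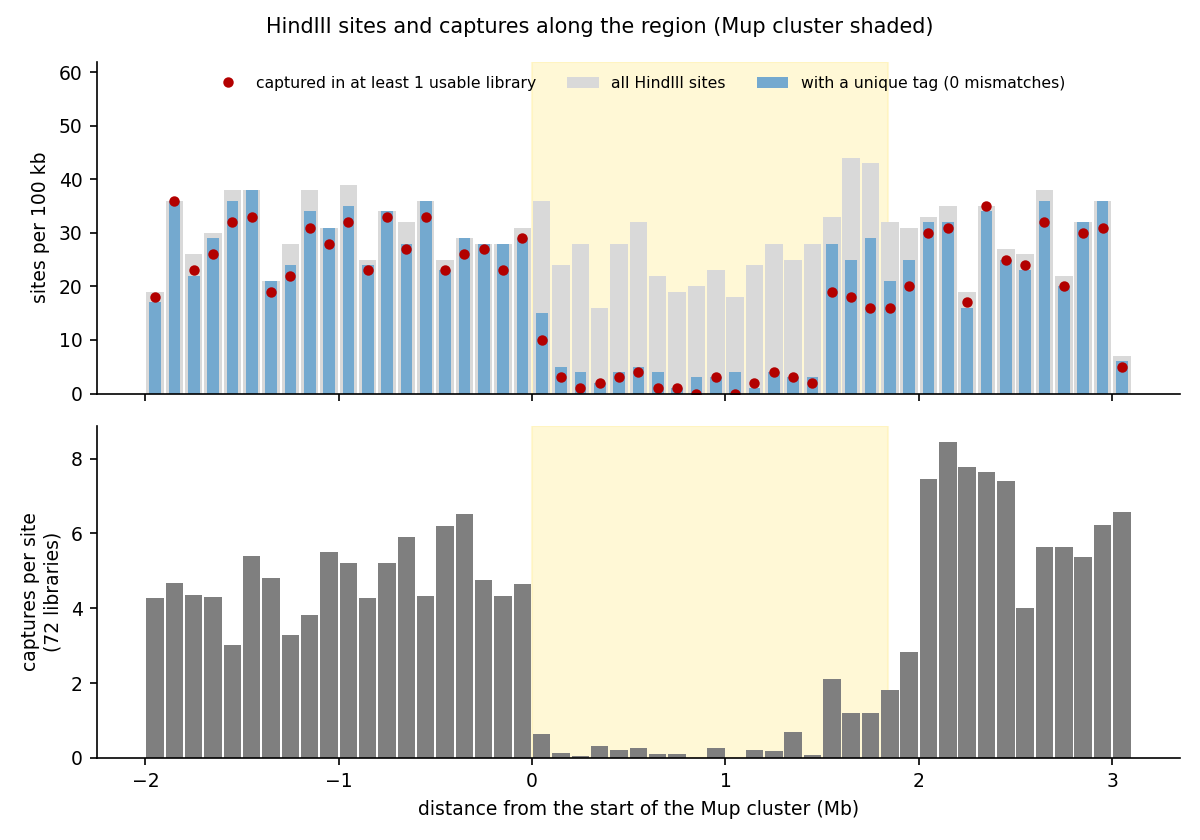
The upper panel plots, per 100 kb, all HindIII sites (grey bars), those with at least 1 tag unique in the genome without mismatch (blue bars) and those captured in at least 1 of the 78 used libraries (red points), against the distance from the start of the Mup cluster (shaded). The lower panel plots captures per site over 72 libraries, which lay between 0 and 2.12 in every 100 kb that is wholly inside the cluster.

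The low capture was not even along the cluster. From the start of Mup7 to the end of Mup19, which holds the central genes, 28 of 329 sites (8.51%) were captured and 301 had no read in any library. Outside these genes, at the edges of the cluster with Mup4 and Mup6 on the left and Mup5, Mup20, Mup3 and Mup21 on the right, 69 of 176 sites (39.2%) were captured. Captures per site were 0.185 in the centre and 1.18 at the edges. This split was chosen after the values were seen and is given without a test.

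Whether a site was captured followed the uniqueness of its tags, which the authors' filter for unique matches made likely in advance. Low capture at sites without a unique tag therefore does not measure their contacts. Over the whole chromosome, reads followed the 2 tags at the HindIII site that ends a fragment more than those at its start site. Where both tags at the end site were unique and both at the start site were not, 78.5% of 2196 sites were captured in at least 1 of the 96 libraries. In the opposite case it was 33.5% of 2221. With neither site's tags unique it was 4.96% of 2921, and with those of both unique 88.2% of 35826. The start site thus also went with capture, to a lesser degree. A row of the count files was therefore read as the HindIII site at its end. In the cluster 226 of 1010 tags (22.4%) were unique without mismatch, against 93.2% in the left flank and 89.6% in the right flank. A further 497 cluster tags (49.2%) had several copies that all lay inside the cluster. The flanks have no such measure, since their own tags lie outside the cluster. With up to 3 mismatches, the number the alignment allowed, only 64 cluster tags (6.34%) remained unique, against 86.0% and 81.6%.

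Of the 354 cluster sites with no tag unique without mismatch, 13 were captured (3.67%, 95% Wilson interval 2.16 to 6.18%). Of the 76 with 1 unique tag, 30 were captured (39.5%, 29.2 to 50.7%), and of the 75 with 2, 54 were captured (72%, 61.0 to 80.9%). The same steps were present in the flanks, where 92.7% of 559 left and 93.6% of 313 right sites with 2 unique tags were captured. Of the 408 cluster sites without a read, 341 had no unique tag. Among sites with 2 tags unique without mismatch, captures per site were 2.47 in the cluster and 5.63 in the flanks. The captured shares were 72% and 93.0%. The intervals treat neighbouring sites, pooled over libraries, as separate and do not measure a spread between lines. At up to 3 mismatches 14 cluster sites had 2 unique tags, of which 11 were captured (78.6%, 52.4 to 92.4%), with 4.64 captures per site against 5.84 in the flanks. Copies that the reference lacks and differences of the 129S5 strain from the C57Bl6 reference were not tested.

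**Figure D2:**
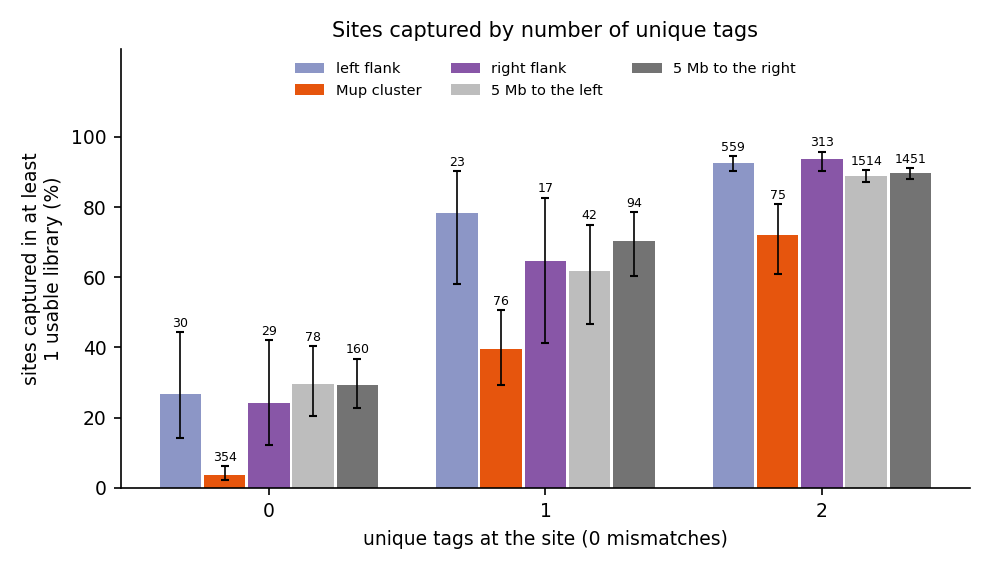
Percent of sites captured in at least 1 of the 78 used libraries (y axis), by the number of tags at the site that are unique in the genome without mismatch (x axis), with 95% Wilson intervals and the number of sites above each bar. The 5 bars of a set are the left flank, the Mup cluster, the right flank and the neighbouring stretches of 5 Mb, and the cluster bar is the lowest of each set, with 3.67, 39.5 and 72%.

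The line is the replicate of the study, so capture was compared over the 4 lines. A summed pair was counted in both of the lines it came from. The line values are therefore not fully separate and do not rest on a line's own libraries alone. In E71 a mean of 0.594% of cluster sites and 3.76% of flank sites was captured per library. The values were 0.817% and 7.76% in E98, 0.639% and 6.63% in E117 and 0.998% and 9.14% in E118. The cluster lay below the flanks in each line, and the 4 flank values lay above all 4 cluster values. The ratio of cluster to flanks was 0.158, 0.105, 0.0964 and 0.109, with a geometric mean of 0.115. An exact sign-flip permutation test over the 4 lines, two-sided, gave p = 0.13, the smallest value that 4 lines allow. The test takes the lines as separate, which the shared pairs make only partly true. Over all sites, this ratio and that to the neighbouring stretches include sites whose reads the filter for unique matches dropped. Their direction was therefore partly set in advance, and their tests do not measure contacts alone. Over sites with at least 1 unique tag the ratio was 0.539 with 3 mismatches allowed and 0.332 with none. It stayed below 1 in each line (exact permutation p = 0.13 for both). These sets are not alike in make-up. With 3 mismatches 36 of 50 cluster sites and 79 of 859 flank sites had only 1 unique tag. With none it was 76 of 151 and 40 of 912.

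The flanks were not poorly captured. Against the stretches of 5 Mb on either side, 53 to 58 Mb and 63 to 68 Mb, the flanks were captured 1.24 times as often per site (1.12 in E71, 1.27 in E98, 1.25 in E117 and 1.34 in E118), and the cluster 0.143 times (0.177, 0.134, 0.121 and 0.146 in the same order). Over sites with at least 1 unique tag with 3 mismatches allowed, the cluster was captured 0.670 times as often as its neighbours (0.869, 0.544, 0.629 and 0.678). With none allowed it was 0.412 times. Here too the cluster had the larger share of sites with only 1 unique tag. Both ratios pointed the same way in 4 of 4 lines, with an exact permutation p of 0.13 each. Between the flanks, capture per site was higher in the right one in 4 of 4 lines, by 1.23 times in E71, 1.33 in E98, 1.31 in E117 and 1.27 in E118 (exact permutation p = 0.13, a comparison added after the values were seen). Over sites with a unique tag this ratio was 1.36.

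The gap between cluster and flanks depended on the viewpoint. At viewpoints 1, 2, 3, 5, 10 and 11 the cluster was captured 0.0457 to 0.0650 times as often per site as the flanks. At viewpoints 4, 9 and 12 the ratio was 0.146, 0.209 and 0.122. At viewpoints 6, 7 and 8, at 152.1, 152.4 and 152.9 Mb, it was 0.621, 0.687 and 0.406. The flanks varied more than the cluster between viewpoints. Their mean captured share per library was 1.98, 2.02 and 1.46% at these 3 viewpoints and 4.61 to 14.5% at the others, while the cluster's share was 0.248 to 1.58% over all 12. At viewpoint 7 the cluster gave 35 of 133 captures (26.3%) and 34.9% of the reads of the stretch, against 28 of 856 captures (3.27%) and 1.35% of the reads at viewpoint 1.

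This pattern was seen in few independent libraries. At viewpoint 7 the libraries of +DBl6 captured 6 cluster and 9 flank sites in E71 and 10 and 14 in E98, but these 2 libraries correlated at 0.97 and count as 1. In E118 the same viewpoint gave 11 cluster and 32 flank sites on +129 and 10 and 37 on +Bl6. In E117, with 99270 and 119821 reads, it gave 3 and 6 on +129 and 0 and 5 on +Bl6. The 2 libraries of E117 were the shallowest of these 6. Over sites with a unique tag the ratio at viewpoints 6, 7 and 8 was 2.61, 3.29 and 1.52, which rests on 14, 18 and 6 captures of 50 sites. At viewpoint 9 it was also above 1, at 1.17 from 19 captures, and at the other viewpoints it was 0.0914 to 0.575. The viewpoints were singled out after their values were seen, and no test was made.

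**Figure D3:**
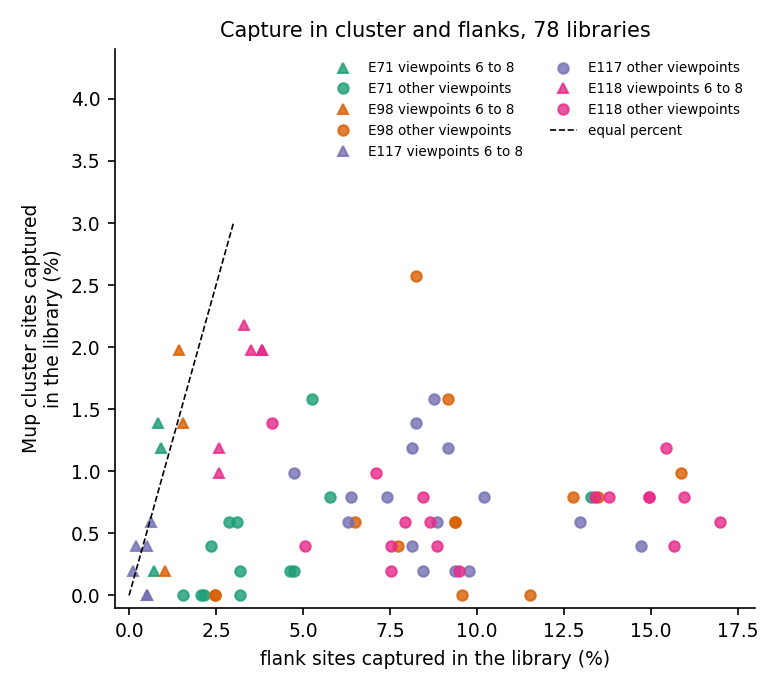
Each point is 1 of the 78 used libraries, with the percent of flank sites captured on the x axis and the percent of Mup cluster sites captured on the y axis, coloured by line. Triangles are viewpoints 6 to 8 and circles the other viewpoints, and the dashed line marks equal percent. In 73 of the 78 libraries the cluster value was below the flank value, and the others were all of viewpoints 6 to 8.

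The 8 sites captured in most libraries all lay in the flanks and all had 2 unique tags. The site at 62186516, in an intron of 4933430I17Rik, was captured in 24 of 78 libraries from 9 viewpoints. It was captured in 4 Df, 7 +DBl6, 6 +129 and 7 +Bl6 libraries, with a median of 6.5 and a highest value of 262 reads. The site at 62345154 lies in an intron of Rgs3, a regulator of G protein signalling. It was also captured in 24 libraries, or 21 when shared pairs count once, and 11 of the 24 were from E117.

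The site at 58514354 in an intron of Lpar1, a receptor for lysophosphatidic acid, was captured in 23 libraries. It had the most reads of the 8, 3034 in all, of which 999 came from 1 library. The site at 62164369 in an exon of Hdhd3 was captured from 11 of the 12 viewpoints, in 22 libraries, yet with no more than 30 reads in any. Breadth over viewpoints and read number thus ranked these sites differently.

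The site at 59604515 in an intron of Hsdl2 was captured in 21 libraries, and in 0 of the Df ones, which are only 8 of the 78. The site at 59337187 in an intron of Susd1 was captured in 21 libraries, with a median of 2 reads. The site at 62026732 in an intron of Slc31a1, the copper importer, was captured in 20, and the site at 58652818, between Gm12579 and Gm12580, in 18. Each of the 8 was without a read in most of the 78 libraries.

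Inside the cluster the 5 most captured sites lay in its right-hand part. The first site of the printed set, at 61512789 between Mup5 and Gm12574, was captured in 12 libraries from 7 viewpoints, with a median of 21.5 and a highest value of 104 reads. It was captured on all chromosome kinds, in 2 Df, 2 +DBl6, 5 +129 and 3 +Bl6 libraries. The second, at 61322081 between Mup-ps14 and Mup18, was captured in 11, and 1466 of its 1589 reads came from viewpoints 6 to 8. It stands apart in the centre of the cluster, where most sites had no read, and both of its tags are unique at up to 3 mismatches.

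The third, at 61582632 between Mup-ps18 and Mup-ps19, was captured in 11 libraries with no more than 22 reads in any. Its plus-strand tag has 1902 exact copies and its minus-strand tag 1, or 365 with up to 3 mismatches. The site at 61675768 lies in an intron of the pseudogene Mup-ps20 and was captured in 10 libraries. The site at 61647521, between Mup-ps19 and Mup-ps20, was captured in 9 libraries from 3 viewpoints, which count as 7 libraries when shared pairs are summed. Reads in the cluster were held by few sites: the 10 with most reads gave 80.1% of them, against 17.7% and 19.7% in the left and right flank. The parts are not alike in this, since the cluster had 97 captured sites and the flanks 544 and 311. A fixed 10 sites are thus a larger part of the cluster. The site with most, at 61553031 between Mup-ps18 and Mup-ps19, had 1994 reads, 24.3% of those of the cluster. Of these, 1874 were from viewpoint 7 and 1303 from the +DBl6 library of E98 at that viewpoint. Both of its tags are unique without mismatch, but with up to 3 mismatches they have 2 and 37 copies.

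Such sites were common in the cluster. Of its 97 captured sites, 62 had no tag unique at up to 3 mismatches, and they held 2910 of the 8195 reads. Only 13 had no tag unique without mismatch, and they held 296 reads.

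Sites without any read were arranged in long runs in the cluster. The longest run held 38 adjacent sites over 210 kb, chr4:60681758-60891407, with Mup12, Mup13 and the pseudogenes Mup-ps7, Mup-ps8 and Mup-ps9. It includes 50000 unknown bases, and 3 of its sites had a unique tag without mismatch. The next held 29 sites over 94.6 kb, chr4:61217172-61311741, with Mup17 and Mup-ps14. The run after it held 23 sites over 123 kb, chr4:60967298-61090611, with Mup-ps11 and part of Mup15, and again 50000 unknown bases. No site of these 3 runs had a tag unique at up to 3 mismatches. Of the 26 runs of at least 5 sites in the stretch, 25 touched the cluster. The longest run of the left flank was 3 sites and that of the right flank 5.

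By gene, capture at the Mup genes was near that of the cluster as a whole. Summed over these genes, 14 of 86 sites were captured, where 19.2% of all 505 cluster sites were. A site in overlapping genes counts more than once. Of 21 annotated Mup genes, 20 on the minus strand, 20 overlap a HindIII site and 7 a captured one. Mup6, Mup2 and Mup15 have long annotated spans with 17, 23 and 27 sites, of which 4, 3 and 3 were captured. The other 18 genes hold 19 sites between them, of which 4 were captured, in Mup8, Mup5, Mup3 and Mup21. Mup5 was captured 3 times with 10 reads and Mup8 once with 1 read. Of 20 Mup pseudogenes, 15 on the plus strand, 5 overlap a site and 1, Mup-ps20, a captured one. Mup20, which encodes the male pheromone darcin, has 2 sites, and neither had a read in any library.

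At the other protein-coding genes of the stretch capture was near that of the flanks, where 88.1% of all 971 sites were captured. Of 38, 37 overlap a HindIII site, and all 37 had a captured one. Summed over genes, with sites in overlapping genes counted more than once, 573 of 629 sites were captured. Svep1, an extracellular matrix protein, had 52 of 53 sites captured with 273 captures. Rgs3 had 41 of 43 with 315 captures, Col27a1, a fibrillar collagen, 33 of 40 with 243, and Musk, the receptor kinase of the neuromuscular junction, 30 of 31 with 131. Ugcg, which makes glucosylceramide, had all 14 captured. Ambp, a lipocalin gene that encodes alpha-1-microglobulin and bikunin, is a relative of the Mup genes outside the cluster and had its 3 sites captured 24 times. The lipocalins Orm1, Orm2 and Orm3 lie beyond the right limit of the stretch. Per site, Hdhd3 had 20.0 captures over 2 sites and Hsdl2 9.70 over 10. Slc31a2 and Zfp37, near the right edge of the cluster, had 2.20 and 4.22.

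The comparison of Df with +129 asks whether the deletion changed the contacts of its own chromosome with the stretch. It can be made at viewpoints 1, 2, 11 and 12, which Df retains. Captures in the stretch, as a share of all captured sites before position 140000000, which are called distant here, were 2.68% in E71 and 3.03% in E98 on Df, and 2.88% in E117 and 2.78% in E118 on +129. The groups overlapped, with means of 2.85% ± 0.249 and 2.83% ± 0.0695 (SD, n = 2 lines each, exact permutation p = 1, where 0.333 is the smallest possible). The cluster alone took 0.154% and 0.0809% on Df and 0.139% and 0.0845% on +129, from 9, 11, 16 and 14 captures. Libraries from E71 and E117, whose PCR products were purified with the same kit, had the higher cluster share and those from E98 and E118 the lower one, on both chromosomes. Within each kit the ratio of Df to +129 for the stretch was 0.929 and 1.09. At viewpoint 11 libraries of E71 and E117 correlated at 0.69 and 0.72 between groups, and the ratio of Df to +129 in shares of reads was 0.929 with this viewpoint and 0.825 without it.

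On the intact homologue, +DBl6 against +Bl6 over viewpoints 1, 2, 3, 5, 11 and 12, the stretch took 2.58% and 2.76% of distant captures in E71 and E98 and 2.62% and 2.77% in E117 and E118 (exact permutation p = 0.667). Between the alleles of the control lines over 10 viewpoints it took 2.46% and 2.20% on +129 and 2.32% and 2.26% on +Bl6 (exact permutation p = 1). Both sets of values overlapped. The 2 copies of a control line come from the same cells, a pairing that the permutation did not use. Within lines the ratio of +129 to +Bl6 was 1.06 in E117 and 0.969 in E118. As shares of reads, the values of +DBl6, 2.40% and 2.15%, lay below those of +Bl6, 2.57% and 2.57% (exact permutation p = 0.333, the smallest possible).

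**Figure D4:**
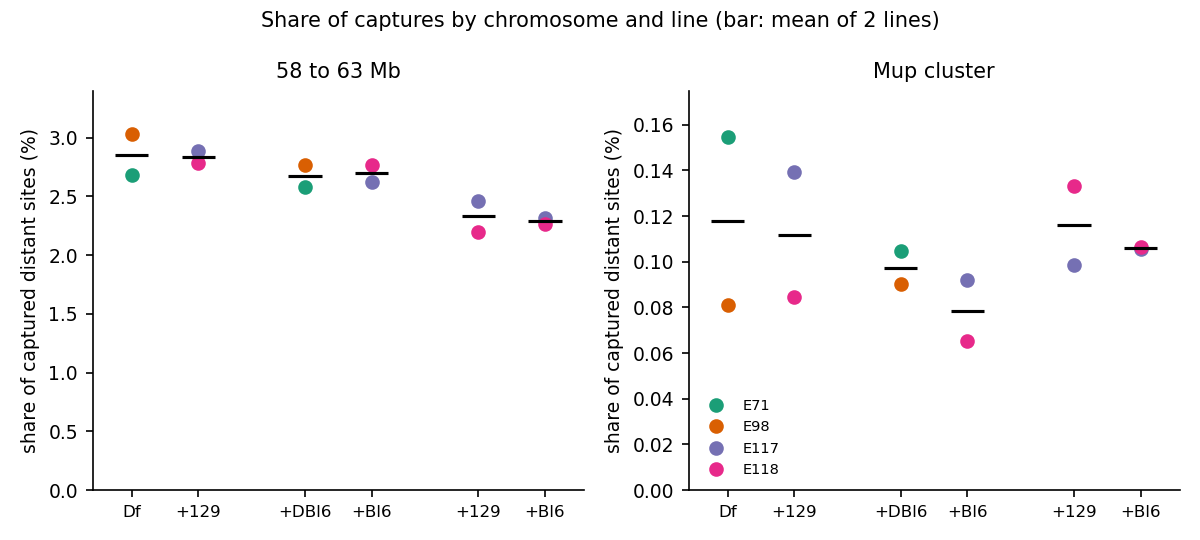
Captures in 58 to 63 Mb (left) and in the Mup cluster (right) as a percent of the captured distant sites of the chromosome copy (y axis), for the 3 comparisons (x axis). Each point is 1 line summed over the viewpoints of that comparison and the bar is the mean of 2 lines. The 2 copies compared lie within 2.2 and 3.03% in the left panel and overlap in each pair there.

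Reads were tested in 500 kb windows of the whole chromosome with edgeR's quasi-likelihood test. Of the 10 windows of the stretch, 8 had enough reads in each comparison, and the window that follows 60500000 was not tested in any. For Df against +129, 0 of the 8 windows passed an adjusted p of 0.05, and 0 had an unadjusted p under 0.05. Of all 303 windows 2.97% passed, and these 9 lay from 150000001 to 154500000. That span holds viewpoints 3 to 10, at 150.4 to 153.9 Mb, inside the deletion, where Df has no sequence. No window outside the span was called, so 2.97% is not a rate of contact changes elsewhere. The window with the smallest p was 59500001 to 60000000, with part of Rod1, the genes from Hsdl2 to Slc46a2 and the first Mup genes. It held 172 reads in E71 and 912 in E98 on Df, and 699 in E117 and 2347 in E118 on +129. After scaling, both Df values lay below both +129 values, with a log2 fold change of -1.02 ± 0.71 (SE, edgeR adjusted p = 0.988). In captured sites it was 0.07. It was the only 1 of the 8 windows whose groups did not overlap, where 27.1% of all windows did so. The next, 61500001 to 62000000, with the right-hand end of the cluster from Mup-ps17 on and Zfp37, had 534 and 523 reads on Df and 570 and 124 on +129, with a log2 fold change of 0.91 ± 0.88 (SE, edgeR adjusted p = 0.988). Without 1 line of a copy it ranged from 0.045 without +129 E118 to 3.36 without +129 E117.

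For +DBl6 against +Bl6, 0 of 8 windows passed, where 0.00% of all windows did (0 of 303, with 11 at an unadjusted p under 0.05, and 2 adjusted calls by DESeq2). In the stretch 0 windows had an unadjusted p under 0.05 by edgeR and 1 by DESeq2. The window 61500001 to 62000000 held 179 and 444 reads on +DBl6 and 835 and 1076 on +Bl6, with a log2 fold change of -1.56 ± 0.85 (SE, edgeR adjusted p = 0.845). The window 62000001 to 62500000 runs from part of Fkbp15 past Slc31a1 and Alad, an enzyme of heme synthesis, to Rgs3. It held 2736 and 6649 reads on +DBl6 and 2586 and 4562 on +Bl6. Its log2 fold change was 0.52 ± 0.34 (SE, edgeR adjusted p = 0.869). The groups did not overlap in 4 of the 8 windows, where they did not in 31.4% of all windows. In captured sites in place of reads the first of these windows had a log2 fold change of 0.16.

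Between +129 and +Bl6 of the control lines, 0 of 8 windows passed, where 0.00% of all 303 did (10 at an unadjusted p under 0.05, and 2 adjusted calls by DESeq2). In the stretch 0 windows had an unadjusted p under 0.05 by edgeR and 1 by DESeq2. The window 61000001 to 61500000 has part of Mup15, Mup16 to Mup19 and Mup5. It held 5 and 124 reads on +129 and 101 and 1022 on +Bl6. Its log2 fold change was -3.06 ± 1.44 (SE, edgeR adjusted p = 0.993). Without 1 line of a copy it ranged from -1.72 without +Bl6 E118 to -5.52 without +129 E118, and it was -6.08 without viewpoint 11. With the line as a replicate block, which pairs the copies of a line, it was -3.43 (edgeR adjusted p = 0.173), and 1 of the 8 windows had an unadjusted p under 0.05. It was the only 1 of the 8 whose groups did not overlap, where 24.1% of all windows did so. In E118 642 reads of this window on +Bl6 came from the site at 61322081 at viewpoint 7 alone. The window 58000001 to 58500000, with Svep1, Musk and part of Lpar1, held 2446 and 3127 reads on +129 and 1400 and 3808 on +Bl6, with a log2 fold change of 0.46 ± 0.46 (SE, edgeR adjusted p = 0.993).

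**Figure D5:**
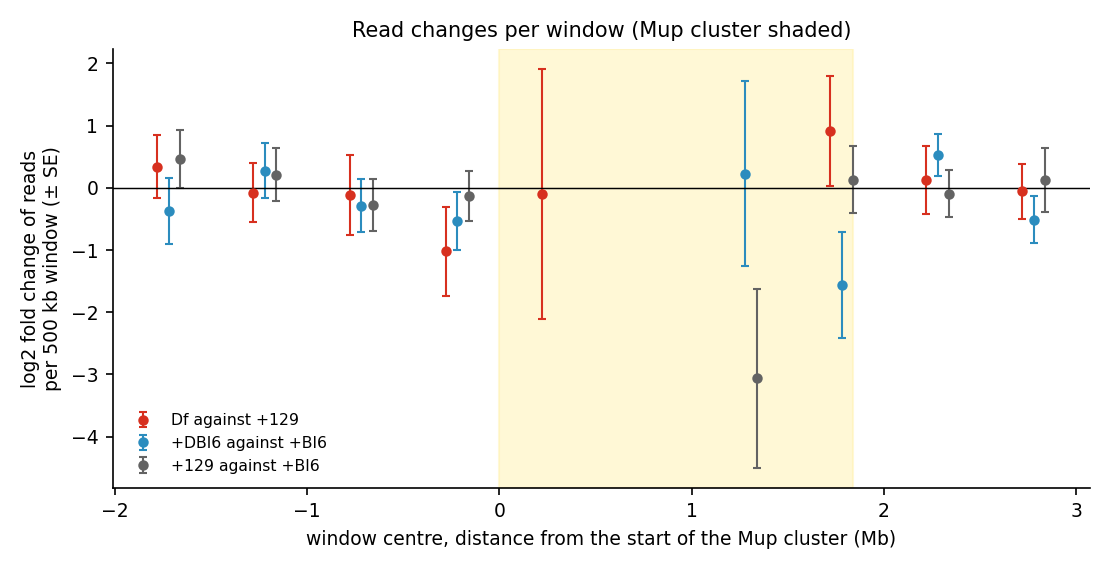
Log2 fold change of reads per 500 kb window with its standard error (y axis) against the distance of the window centre from the start of the Mup cluster (x axis, cluster shaded), for Df against +129, +DBl6 against +Bl6 and +129 against +Bl6. The values of each comparison are shown for the 8 windows with enough reads, and the widest errors, up to 2.01, lie inside the cluster.

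Since reads were aligned to the C57Bl6 reference, the share of the cluster in the captures of the stretch was compared between the strains' copies at viewpoints 1, 2, 11 and 12. It was 5.77% on the 129S5 copy and 3.90% on the C57Bl6 copy in E71, 2.67% and 3.33% in E98, 4.83% and 4.64% in E117 and 3.04% and 2.07% in E118. The 129S5 copy was higher in 3 of 4 lines. The mean difference, 129S5 minus C57Bl6, was 0.595 percentage points ± 1.08 (SD, n = 4 lines, exact sign-flip permutation p = 0.375, two-sided). The copies of 1 line are not free of each other. Over 31 pairs of libraries of both copies of a line at the same viewpoint, 1071 of 3743 captured sites (28.6%) were captured on both, and in 802 of the 1071 the copy with fewer reads held under 10% of the reads. Reads given to the wrong copy were not tested as a source.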

How the data were processed

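The members of the stretch, the gene lists and the tests were chosen with earlier results of these data known. The deposited values are counts of reads, not normalized, for each HindIII fragment of chromosome 4, with 1 file per library. The authors told the copies apart by a base that differs between the strains and is read at the viewpoint, trimmed the other read to 30 bases, aligned it with bowtie (version not given in the sources used here) to sequences next to HindIII sites of mm9 with up to 3 mismatches, kept unique matches and summed them per fragment. The pooled PCR products of E71 and E117 were purified with another kit than those of E98 and E118, according to the study's methods. The 16 tables of the authors' own differential regions hold their findings and were not used.

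Fragment ends were compared with the HindIII sites of the NCBIM37 reference, and all 48319 matched, with the chromosome end as the last row. Genes are from GENCODE vM1. Tags were counted over the genome at 0 and 3 mismatches. Used libraries have at least 10000 reads. Pairs of the same chromosome and viewpoint with a correlation of log reads above 0.9 were summed for captures. In values by line the sum was counted in both lines. The viewpoints of such pairs were left out of the comparison they concern. Named sites are the 8 captured in most libraries, the 5 in the cluster, the 3 longest runs without a read, and the 2 windows with the smallest p where none passed.

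Reads outside 20 kb of the viewpoint were summed per 500 kb window and line and tested with edgeR (4.0.16, R 4.3.3), with TMM scaling, at least 10 reads in at least 50% of columns, and Benjamini-Hochberg adjustment over all windows at 0.05. DESeq2 (1.42.0) was an alternative. Comparisons of single values used exact permutation over lines. The shares of distant captures by chromosome copy, the split of the cluster, the right against the left flank, the account by viewpoint and the tags with all copies in the cluster were added after the values were seen. A further tag of that kind is not reported here. Nothing in the labels says that the 2 lines of a group came from separate matings, so p-values measure the spread between lines. The window test was run on simulated counts whose spread was set rather than taken from these data. That run does not show how the test performs on these data.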

Additional observations from a re-analysis of the deposited data

Results flagged for a closer look

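At the edges of the cluster, outside the genes from Mup7 to Mup19, the ratio of capture per site to that of the flanks was 0.387 in E71, 0.229 in E98, 0.230 in E117 and 0.225 in E118. The value of E71 stood apart from those of the other lines, with a gap of 0.971 of the whole range. Among 19 sets of 4 lines looked at in this way it was the single such value, and chance gives about 1 in 20. E71 was also the line with the lowest capture in the flanks, 3.76% of sites. The part of this in the ratio was not tested.

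The 16 libraries of viewpoints 3 to 10 called as Df, whose chromosome lacks these viewpoints, held 135 reads and 87 captured sites in the stretch, of which 3 sites and 5 reads were in the cluster. In 5 of the 16 the stretch had no read. Their source was not tested.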

How the results depend on the processing

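The lower capture of the cluster against its flanks and the neighbouring stretches, and the higher capture of the flanks, kept their direction under each alternative. Without 1 line at a time, the ratio of cluster to flanks was 0.103 to 0.122, of cluster to neighbours 0.133 to 0.151 and of flanks to neighbours 1.21 to 1.29. Other settings moved the sizes more. Cluster to flanks was 0.0760 with at least 5 reads, 0.173 with limits of 60 to 62 Mb, and 0.332 to 0.539 over sites with a unique tag of any length tried. Cluster to neighbours was 0.412 to 0.670 over such sites. The difference in cluster share between the 129S5 and C57Bl6 copies turned to -0.0852 points with at least 5 reads and to -1.08 with all libraries, which adds the other viewpoints, the Df libraries of viewpoints 3 to 10 and those with few reads, and was 0.169 to 1.01 without 1 line. The cause was not tested.

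With reads in place of captured sites, the ratio for the stretch was 0.929 for Df against +129 and 0.999 for +129 against +Bl6, or 0.825 and 0.919 without viewpoint 11. For the cluster it was 0.587 for Df, 0.968 for the intact homologue and 0.960 for the control alleles, and without viewpoint 11 0.825 and 0.679 for the first 2. These point the other way from captures. In captured sites, the windows starting at 59500001 (Df), 61500001 (+DBl6) and 58000001 (+129) had log2 fold changes of 0.072, 0.16 and -0.034. With all viewpoints the windows starting at 61500001 and 62000001 of +DBl6 against +Bl6 had 0.053 and -0.13, and without +129 E117 the window starting at 58000001 had -0.19 (range without 1 line -0.19 to 0.87). No window of the stretch passed in any setting run.

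Over the whole chromosome the calls moved. For Df against +129, 9 became 27 in 80 kb windows, 4 without Df E98 and 0 without +129 E118. For +DBl6 against +Bl6, 0 became 2 with DESeq2, 21 with all viewpoints and 19 without +DBl6 E98. For +129 against +Bl6, 0 became 2 with DESeq2, 4 with all viewpoints and 1 without +Bl6 E118. With the line number as a replicate block, +129 against +Bl6, which pairs the copies of 1 line, had 4 calls, and 0 in the stretch. The correlation of paired deviations was 0.391 there, and 0.110 and 0.170 in the other two comparisons. Few reads per site limit all comparisons inside the cluster.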
